A study of Mus musculus with 8 samples.

Results

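The genes described here carry TGF-beta signalling in microglia, the resident macrophages of the brain. They are 10 genes of the 46983 in the deposited table, chosen by symbol: the ligand Tgfb1, the surface activator Nrros, the receptors Tgfbr1 and Tgfbr2, the signal carriers Smad2, Smad3 and Smad4, and the inhibitors Smad7, Ski and Skil. Each symbol had a row, and all 10 passed the filter on low values.

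TGF-beta1 is made as a latent complex, and in microglia the transmembrane protein Nrros holds that complex at the cell surface, where integrins free the ligand. The active ligand joins the type II receptor Tgfbr2 and the type I receptor Tgfbr1, and within this complex Tgfbr1 phosphorylates Smad2 and Smad3. These bind Smad4 and enter the nucleus. Smad7, Ski and Skil act as brakes, and transcription of Smad7 and Skil is itself raised by the pathway in many cell types. In mice, adult microglia need this signal to keep their resting expression programme.

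Total RNA was sequenced from microglia of the corpus callosum in 8 libraries, 4 named Qk-KO and 4 named WT. By label, Qk-KO stands for Cx3cr1-CreER;QKLoxP/LoxP mice, with both alleles of the RNA-binding protein gene Qk flanked by loxP. WT stands for Cx3cr1-CreER;QKLoxP/+ mice, with 1 flanked allele. All mice were FvB/C57BL6 hybrid, carried an inducible Cre under Cx3cr1, were given tamoxifen at 8 weeks of age and then ate 0.2% cuprizone, a demyelinating agent, for 6 weeks. Cx3cr1 is also active in other macrophages, and WT mice shared the Cre, the tamoxifen, the diet and a flanked allele. The name and the genotype field of the labels disagree for 4 libraries: named Qk-KO 1 and 3 are WT in the field, and named WT 2 and 3 are Qk-KO in it. Libraries are called by name below, and the genotype field was compared as a second grouping. The labels do not tie libraries to separate animals, so every p-value measures the spread between these libraries only, which may be technical.

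The depth of named Qk-KO libraries was below that of named WT libraries, with rough totals of 43.9 to 58.5 M assigned reads against 59.7 to 69.7 M. Qk itself was at log2 values of 15.59, 15.40, 15.69 and 15.29 in named Qk-KO libraries, against 15.50, 15.38, 15.41 and 15.37 in named WT libraries. These groups overlapped, with a difference of 0.08 (limma, adjusted p = 0.819). By genotype field Qk had the other sign, at means of 15.37 in Qk-KO and 15.54 in WT. That difference was -0.16 (limma, adjusted p = 0.9995). The highest values, 15.69 and 15.59, were in libraries named Qk-KO whose field says WT. Groups by field overlapped too, and the value sums all exons, so Qk is a weak check of the labels. Fold changes in the authors' deposited table follow the names: across 5232 genes with a deposited standard error under 0.1, the recomputed differences correlated with them at r = 0.9997 by name and 0.0460 by genotype field. All 10 microglial markers were detected, and their summed level was 17271 to 19998 CPM in named Qk-KO libraries and 20790 to 22590 CPM in named WT libraries. CPM here is normalized signal divided by the same constant for all libraries, not by each library's own total. The libraries numbered 4 stood apart. Their oligodendrocyte markers summed to 261 CPM in named Qk-KO 4, against 124 to 132 CPM in the other libraries named Qk-KO, and to 307 CPM in named WT 4, against 130 to 139 CPM in the other libraries named WT. Of 14 marker lists of other and resident cell types, none had a gene at 0.

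Promoters are shown for Nrros, the only member whose named groups did not overlap, and for Eng, a TGF-beta co-receptor gene called lower in the authors' deposited table. Each window runs from 250 bases before to 50 after the start of the gene in RefSeq (GRCm38.p6), read 5′ to 3′ on the gene's strand. The Nrros window is chr16:32165545-32165844 on the minus strand, and the Eng window is chr2:32646345-32646644 on the plus strand. Capitals mark the letters CAGAC, the core of the SMAD-binding CAGA box, and GAGGAA, a core bound by the myeloid factor PU.1, on either strand; neither motif overlaps the other here.
Nrros: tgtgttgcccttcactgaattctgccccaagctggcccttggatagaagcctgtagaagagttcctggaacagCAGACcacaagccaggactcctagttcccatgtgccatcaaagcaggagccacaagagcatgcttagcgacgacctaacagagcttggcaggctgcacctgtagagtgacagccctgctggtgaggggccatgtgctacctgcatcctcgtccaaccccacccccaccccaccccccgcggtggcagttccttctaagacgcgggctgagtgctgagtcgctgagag
Eng: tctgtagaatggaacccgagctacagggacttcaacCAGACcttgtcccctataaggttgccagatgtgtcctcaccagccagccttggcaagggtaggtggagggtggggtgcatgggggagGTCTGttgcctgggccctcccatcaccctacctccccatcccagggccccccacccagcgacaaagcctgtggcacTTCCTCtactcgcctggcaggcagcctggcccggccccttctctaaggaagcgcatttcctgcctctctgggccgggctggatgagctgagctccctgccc
The Nrros window holds CAGAC at 1 place and GAGGAA at none. The Eng window holds CAGAC at 2 places, the second as its reverse complement, and GAGGAA at 1, also as its reverse complement. Among 32851 promoter windows of the same length, 49.6% hold CAGAC and 28.3% hold GAGGAA, so a match describes the letters and marks no binding site. Promoter windows were read for 6 of the 10 members.

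None of the 10 members was called between named Qk-KO and named WT libraries. At an adjusted p of 0.05 the authors' deposited table called none of the 10, and 1.22% of the 14150 genes that have an adjusted p. A limma fit to the deposited log2 values called 0 of 10 by name, against 0.00444% of 22546 genes tested, with 1 of 10 at an unadjusted p under 0.05 and 8.26% of all genes. By genotype field limma called 0 of 10 members and 0 of 22546 genes, with 0 of 10 and 2.67% at an unadjusted p under 0.05. The median difference of the members was 0.04 on the log2 scale, with 7 higher and 3 lower in named Qk-KO, beside a median of -0.0044 over all genes tested. By genotype field, Qk-KO minus WT, the members ran from -0.37 for Skil to 0.10 for Tgfbr1, with a median of -0.10. The authors' values shrink genes with few reads towards their mean, which understates change, but the least expressed member still averaged 38.5 CPM. In RNA of a whole cell preparation, fewer cells of a type and less RNA per cell cannot be told apart.

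**Figure D1:**
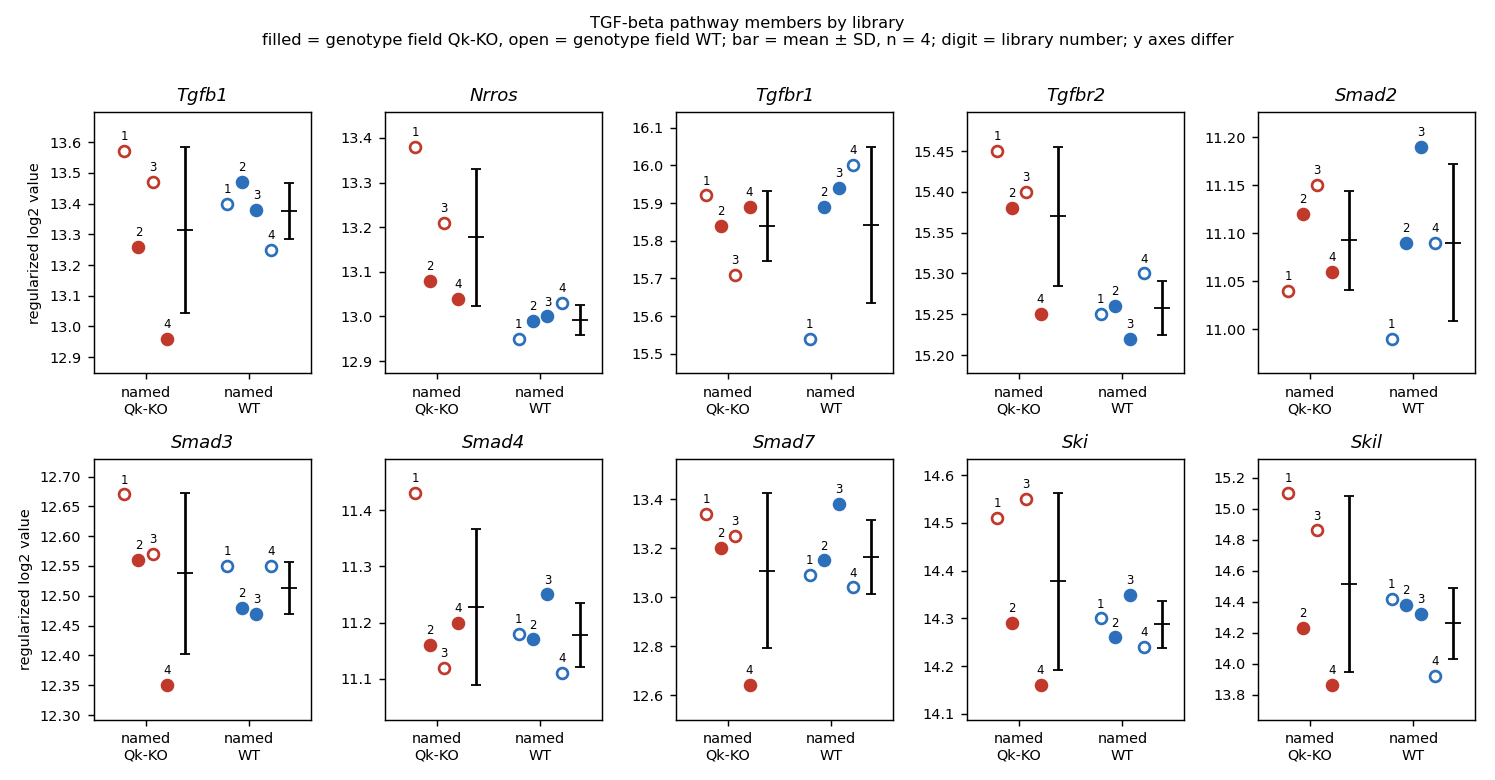
Regularized log2 value of each of the 10 members in every library, named Qk-KO left of named WT; points are libraries, their marker shows the genotype field, and bars are group means ± SD (n = 4). Nrros is the only panel in which the named groups do not overlap, and Skil has the widest spread, 1.24 on the log2 scale.

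The receptors were the most abundant members per length. Mean signal per kilobase of annotated exon, scaled to the same sum as CPM, was 221 for Tgfbr1 and 122 for Tgfbr2, then 91.5 for Ski. Skil at 56.5, Nrros at 51.4, Tgfb1 at 51.1 and Smad7 at 49.4 formed a group in which neighbours changed places between libraries: Skil was above Nrros in 5 of 8 libraries, Nrros above Tgfb1 in 5 and Tgfb1 above Smad7 in 6. Smad3 at 26.2, Smad4 at 15.6 and Smad2 at 6.11 closed the order. The gap from Smad2 up to Smad4 was 1.35 ± 0.13 on the log2 scale (mean ± SD, n = 8 libraries), and every other step of the order apart from those within the middle group also held in 8 of 8 libraries. Lengths are unions of all annotated exons, so a gene with long rarely used exons is placed too low on this scale.

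Tgfb1 encodes the ligand (ENSMUSG00000002603.15, chromosome 7, 25687002 to 25705077, plus strand, GRCm38). On the regularized log2 scale it was at 13.57, 13.26, 13.47 and 12.96 in named Qk-KO libraries, against 13.40, 13.47, 13.38 and 13.25 in named WT libraries. Named Qk-KO 1 was the highest and named Qk-KO 4 the lowest of all 8, so the WT values lay inside the Qk-KO range. The means were 13.32 ± 0.27 in named Qk-KO and 13.38 ± 0.09 in named WT (SD, n = 4 each), which differ by -0.06 (95% interval -0.33 to 0.21; adjusted p = 0.914 by limma). Without both libraries numbered 4 the difference was 0.02. Of the other ligands, Tgfb2 was at 6.03 CPM and Tgfb3 at 0.635 CPM, against 185 CPM for Tgfb1. In the authors' deposited table Tgfb2 differed by -0.34 (adjusted p = 0.485), and Tgfb3 has no adjusted p there.

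Nrros, also known as Lrrc33, tethers latent TGF-beta1 (ENSMUSG00000052384.13, chromosome 16, 32142785 to 32165594, minus strand, GRCm38). Given to 3 decimals because some lie close, its values were 13.382, 13.078, 13.207 and 13.044 in named Qk-KO libraries, against 12.948, 12.994, 13.001 and 13.034 in named WT libraries. Every named Qk-KO library lay above every named WT library, with named Qk-KO 4 and named WT 4 almost level. Of all genes tested, 5.73% had no overlap between the named groups, 3.04% with named Qk-KO higher. By genotype field no member was free of overlap, beside 1.85% of all genes, 0.923% with Qk-KO lower. The means were 13.18 ± 0.15 in named Qk-KO and 12.99 ± 0.04 in named WT (SD, n = 4 each). The difference of 0.18 ± 0.07 (SE) had a 95% interval of 0.02 to 0.35 and did not pass over all genes (limma, adjusted p = 0.562). The authors' deposited table gives 0.19 with an SE of 0.09, a 1.14-fold difference (p = 0.0277, adjusted p = 0.366), where 10.7% of the genes with an adjusted p have an unadjusted p under 0.05. By genotype field the difference had the other sign, -0.11 (95% interval -0.32 to 0.09; adjusted p = 0.9995 by limma).

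Of 17 genes of latency and activation, Nrros included, 15 had an adjusted p in the authors' deposited table and 0 were called; the median difference was -0.09. The integrin beta subunit gene Itgb5 was the most abundant, at 2020 CPM, and by the authors' deposited table it differed by 0.09 (adjusted p = 0.652). Itgb1 was at 285 CPM and differed by -0.05 there (adjusted p = 0.821).

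The type I receptor gene Tgfbr1 (ENSMUSG00000007613.15, chromosome 4, 47353222 to 47414931, plus strand, GRCm38) averaged 1037 CPM. Its values were 15.92, 15.84, 15.71 and 15.89 in named Qk-KO libraries, against 15.54, 15.89, 15.94 and 16.00 in named WT libraries. The lowest and the highest library were both named WT, numbers 1 and 4. The means were 15.84 ± 0.09 in named Qk-KO and 15.84 ± 0.21 in named WT (SD, n = 4 each), and the 95% interval of the difference, -0.22 to 0.22, leaves room for changes of that size in either direction (limma, adjusted p = 0.997).

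The type II receptor gene Tgfbr2 (ENSMUSG00000032440.12, chromosome 9, 116084293 to 116175360, minus strand, GRCm38) averaged 718 CPM. Its values were 15.45, 15.38, 15.40 and 15.25 in named Qk-KO libraries, against 15.25, 15.26, 15.22 and 15.30 in named WT libraries. Named Qk-KO 1, 2 and 3 lay above all named WT libraries, and named Qk-KO 4 lay among them. Named Qk-KO exceeded named WT by 0.11 ± 0.05 (SE), 95% interval -0.01 to 0.23 (limma, adjusted p = 0.643), and without both libraries numbered 4 it was 0.16 (limma, adjusted p = 0.227).

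The type I receptor Acvrl1, or ALK1, and the co-receptor endoglin, encoded by Eng, were lower in named Qk-KO in the authors' deposited table, and they were the 2 genes called among 8 receptors and co-receptors, 7 of which have an adjusted p there. Lower calls made up 0.671% of the genes with an adjusted p in that table. Acvrl1 had values of 10.81, 10.87, 10.41 and 10.52 in named Qk-KO libraries, against 11.43, 11.31, 11.11 and 11.23 in named WT libraries. The same table puts it 1.54-fold lower (log2 -0.62, SE 0.13, adjusted p = 0.000524). All named Qk-KO libraries lay below all named WT libraries.

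Eng had values of 11.17, 10.78, 10.63 and 10.92 in named Qk-KO libraries, against 11.50, 11.47, 11.25 and 11.37 in named WT libraries. The authors' deposited table puts it 1.44-fold lower (log2 -0.52, SE 0.13, adjusted p = 0.00695), again without overlap. Limma did not call either gene, with adjusted p of 0.257 for Acvrl1 and 0.334 for Eng. Within the libraries of Qk-KO genotype field the named difference was -0.52 for Acvrl1 and -0.51 for Eng, and within those of WT genotype field it was -0.72 for Acvrl1 and -0.54 for Eng. Without both libraries numbered 4 it was -0.59 for Acvrl1 and -0.55 for Eng. As the named groups of these genes do not overlap, the sign of each such difference was fixed in advance. These values are therefore no separate support.

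Both genes are known best from endothelium, at 36.2 CPM for Acvrl1 and 40.5 CPM for Eng here. The 8 endothelial markers summed to 234 to 261 CPM in named Qk-KO libraries and 215 to 296 CPM in named WT libraries, with 0 of 8 called in the authors' deposited table. Their median difference was -0.56, with 7 of 8 below 0. Medians of the other marker lists ran from -0.87 for astrocytes to 0.04 for B cells. Erythroid markers were at -0.67, choroid plexus markers at -0.65 and oligodendrocyte markers at -0.14. The part of any of these cell types in the Eng and Acvrl1 results was not tested. Tgfbr2, the type II receptor that pairs with ALK1 in endothelium, differed in the other direction without a call, as given above.

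**Figure D2:**
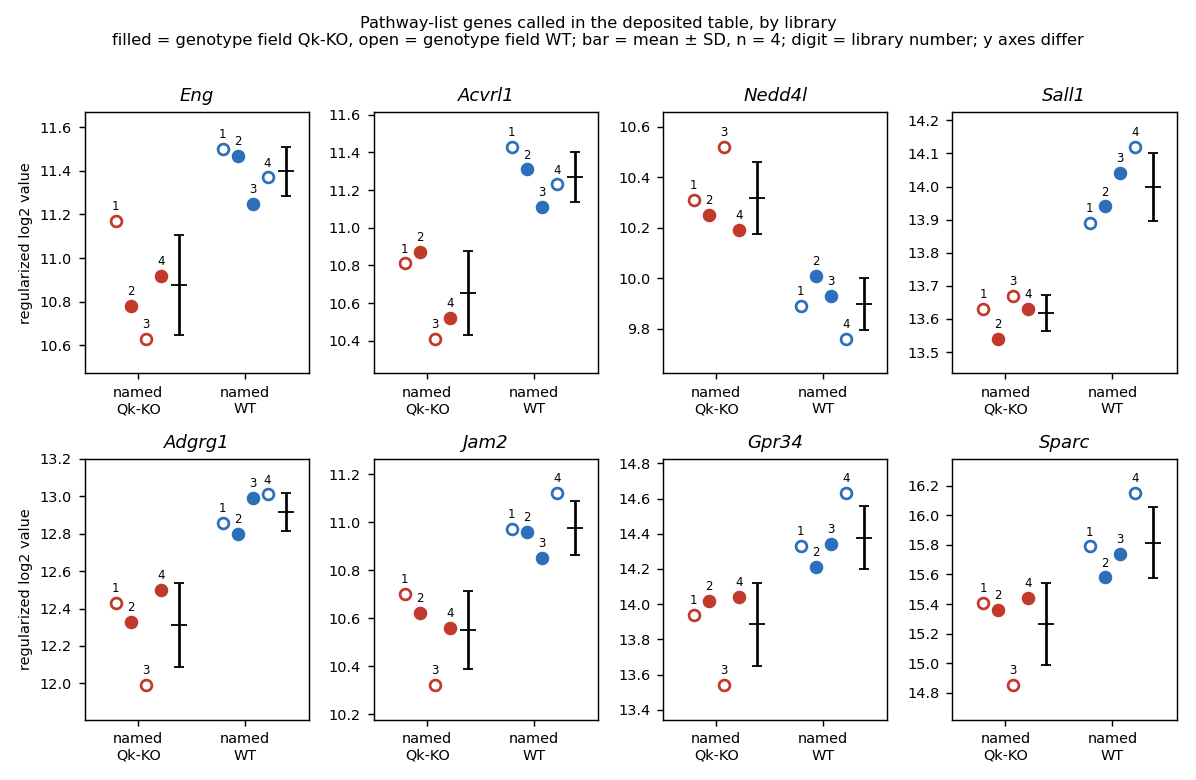
Regularized log2 values by library for 8 genes of the TGF-beta lists called in the authors' deposited table, named Qk-KO left of named WT; points are libraries, their marker shows the genotype field, and bars are group means ± SD (n = 4). In every panel the named groups do not overlap, which follows largely from selecting the genes by the same groups.

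Smad2 and Smad3 carry the signal from the receptors. Smad2 (ENSMUSG00000024563.15, chromosome 18, 76241580 to 76310963, plus strand, GRCm38) had values of 11.04, 11.12, 11.15 and 11.06 in named Qk-KO libraries, against 10.99, 11.09, 11.19 and 11.09 in named WT libraries. The groups overlapped fully around a difference of 0.00, with a 95% interval of -0.13 to 0.13. Its range over all libraries, 0.21, was the narrowest of the members.

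Smad3 (ENSMUSG00000032402.12, chromosome 9, 63646767 to 63757994, minus strand, GRCm38) had values of 12.67, 12.56, 12.57 and 12.35 in named Qk-KO libraries, against 12.55, 12.48, 12.47 and 12.55 in named WT libraries. Named Qk-KO held both the highest and the lowest library, and the difference was 0.02 with a 95% interval of -0.13 to 0.18. By genotype field the difference was -0.12 (95% interval -0.26 to 0.02; adjusted p = 0.9995 by limma), with the smallest unadjusted p of the members in that grouping.

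The common partner Smad4 (ENSMUSG00000024515.13, chromosome 18, 73639009 to 73703780, minus strand, GRCm38) had values of 11.43, 11.16, 11.12 and 11.20 in named Qk-KO libraries, against 11.18, 11.17, 11.25 and 11.11 in named WT libraries. Named Qk-KO 1 stood above the other 7 libraries, which overlapped. The groups differed by 0.05 (95% interval -0.12 to 0.22; adjusted p = 0.874 by limma). Of 8 SMAD genes, 7 had an adjusted p in the authors' deposited table and 0 were called, and Smad5, which carries BMP signals, differed by -0.06 there (adjusted p = 0.849).

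The inhibitory Smad7 (ENSMUSG00000025880.11, chromosome 18, 75367529 to 75395935, plus strand, GRCm38) had values of 13.34, 13.20, 13.25 and 12.64 in named Qk-KO libraries, against 13.09, 13.15, 13.38 and 13.04 in named WT libraries. Named Qk-KO 4 lay far below every other library, and named WT 4 was the lowest of its group. Named Qk-KO and named WT differed by -0.05 (95% interval -0.39 to 0.28; adjusted p = 0.934 by limma), and without both libraries numbered 4 it was 0.06.

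Ski is a nuclear co-repressor of SMAD complexes (ENSMUSG00000029050.15, chromosome 4, 155154075 to 155222592, minus strand, GRCm38). Its values were 14.51, 14.29, 14.55 and 14.16 in named Qk-KO libraries, against 14.30, 14.26, 14.35 and 14.24 in named WT libraries. Named Qk-KO 1 and 3 were the highest libraries and named Qk-KO 4 the lowest. The groups differed by 0.09 (95% interval -0.11 to 0.28; adjusted p = 0.797 by limma).

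Skil encodes SnoN, a co-repressor related to Ski (ENSMUSG00000027660.16, chromosome 3, 31095058 to 31122577, plus strand, GRCm38), and was the most variable member. Its values were 15.10, 14.23, 14.86 and 13.86 in named Qk-KO libraries, against 14.42, 14.38, 14.32 and 13.92 in named WT libraries. Named Qk-KO 1 and 3 were the highest and both libraries numbered 4 the lowest. The means were 14.51 ± 0.57 in named Qk-KO and 14.26 ± 0.23 in named WT (SD, n = 4 each). The difference of 0.25 ± 0.27 (SE) had a 95% interval of -0.37 to 0.88 (adjusted p = 0.819 by limma), the widest of the members. It was 0.06 without named Qk-KO 1 and 0.47 without named Qk-KO 4. The authors' deposited table gives 0.31 with an SE of 0.23 (adjusted p = 0.672).

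**Figure D3:**
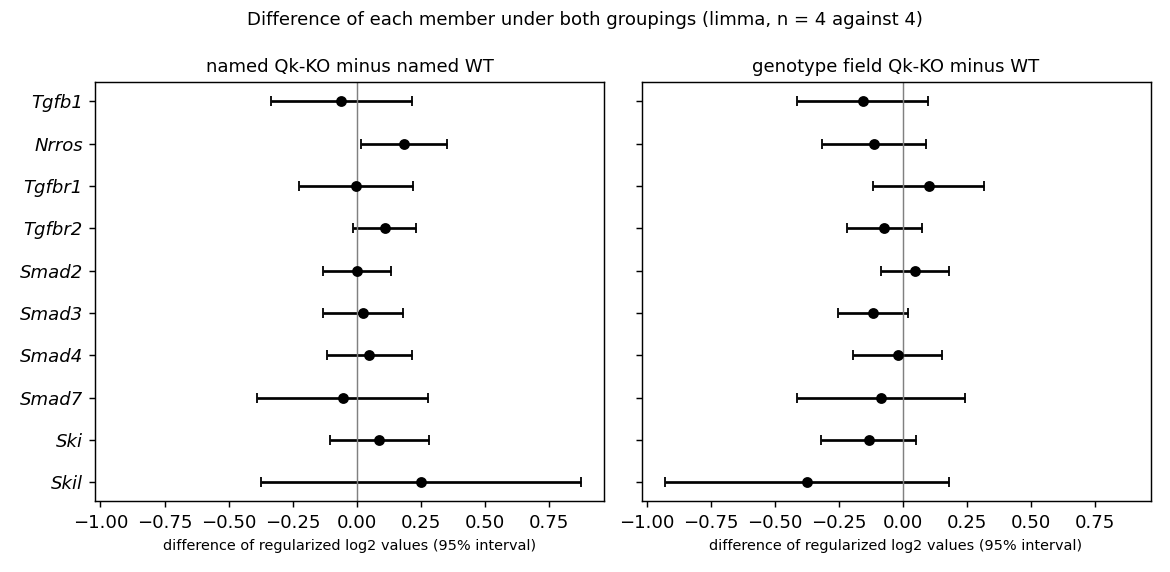
Difference of each member on the log2 scale, Qk-KO minus WT, with 95% intervals from limma, for the grouping by sample name and for the grouping by genotype field. By name the interval lies wholly above 0 for Nrros alone, at 0.02 to 0.35, and Skil has the widest, -0.37 to 0.88.

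Of 20 genes that regulate SMAD proteins, 1 was called higher and 0 lower in the authors' deposited table, beside 0.551% and 0.671% of the genes with an adjusted p. The gene is Nedd4l, a ubiquitin ligase that marks activated Smad2 and Smad3 for degradation. It had values of 10.31, 10.25, 10.52 and 10.19 in named Qk-KO libraries, against 9.89, 10.01, 9.93 and 9.76 in named WT libraries. All named Qk-KO libraries lay above all named WT libraries. The authors' deposited table puts it 1.35-fold higher (log2 0.44, SE 0.10, adjusted p = 0.00610) and was not called by limma (adjusted p = 0.315).

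Tgif1, another co-repressor, was at 14.02, 13.43, 13.87 and 11.95 in named Qk-KO libraries, against 13.43, 13.52, 13.53 and 11.96 in named WT libraries. As for Skil, both libraries numbered 4 were the lowest. Of 14 nuclear partners of SMADs, 13 were tested and 0 were called in the authors' deposited table; Atf3, Ncor1 and Crebbp were the most abundant and differed by 0.15, 0.13 and -0.02 there (adjusted p = 0.749, 0.706 and 0.975).

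Members moved together unevenly from library to library. Over the 8 libraries, 14 of the 45 pairs of members had a Pearson r above 0.7 and 9 had one below 0, with a median of 0.42. Ski and Skil were the closest pair, at 0.93, and Tgfbr1 and Skil the most opposed, at -0.28. Tgfb1 and Smad7 were at 0.86, and Nrros and Tgfbr2 at 0.89. Tgfbr1 and Smad2 followed the other members least: the highest r of either with another member was 0.42. These values come from the same 8 libraries, share their depth and cell makeup, and are a description.

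**Figure D4:**
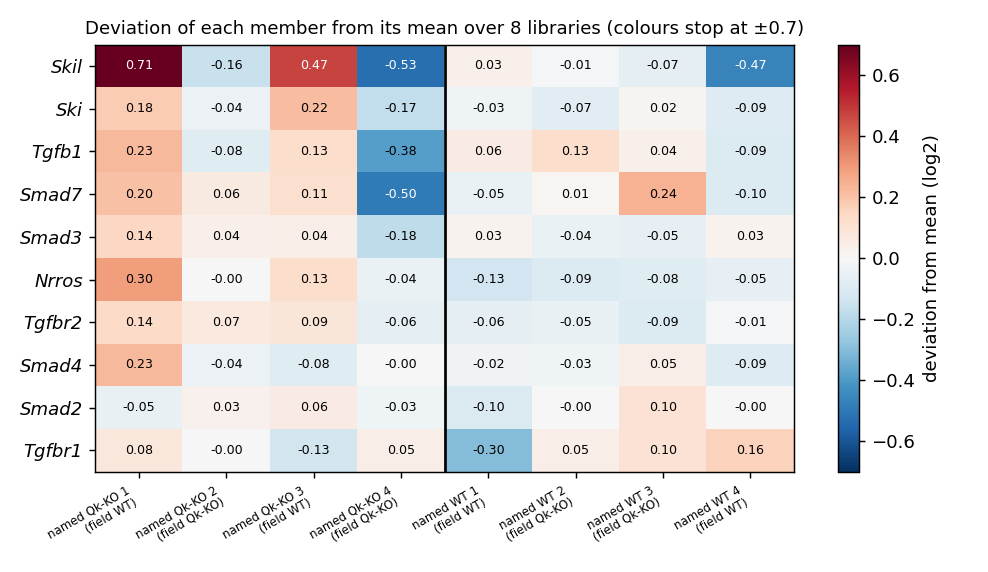
Deviation of each member from its own mean over the 8 libraries, on the log2 scale, with libraries in columns, named Qk-KO left of named WT, and the genotype field under each name. Skil, Ski, Tgfb1, Smad7, Smad3, Nrros and Tgfbr2 are above their mean in named Qk-KO 1 and 3, and all 7 are below it in named Qk-KO 4.

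Because the names and the genotype field cross, each combination holds 2 libraries, and the named difference can be taken within each genotype field. For Skil it was -0.30 within the Qk-KO field, where named Qk-KO 2 and 4 are set against named WT 2 and 3, and 0.81 within the WT field, where named Qk-KO 1 and 3 are set against named WT 1 and 4. In the same order of fields it was -0.34 and 0.23 for Smad7, -0.31 and 0.19 for Tgfb1, and -0.08 and 0.26 for Ski. The value in the Qk-KO field minus that in the WT field was -1.11 ± 0.27 (SE) for Skil and -0.51 ± 0.16 (SE) for Tgfb1. Of the 10 members, 4 had an unadjusted interaction p under 0.05, where 11.2% of all genes did, and 0 passed over all genes, where 0.0222% did (limma, adjusted p of 0.311 for Skil, 0.345 for Tgfb1, 0.350 for Ski and 0.442 for Smad7). Named Qk-KO 4 enters this contrast in the Qk-KO field and named WT 4 in the WT field, and their part in it was not tested. Nrros was higher in named Qk-KO within both fields, by 0.06 in the Qk-KO field and 0.30 in the WT field. Its named groups do not overlap, so the direction within each field was fixed in advance.

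For each member the gene most like it was taken among 8446 genes of at least 10 CPM, by Pearson r over the 8 libraries. Skil was closest to Zbtb21 (r = 0.995), Tgfb1 to Atf6 (0.989), Ski to Gcnt2 (0.983) and Tgfbr2 to Msr1 (0.967). Smad3 was closest to Yeats4 (0.962), Nrros to 3110043O21Rik (0.957), Smad2 to 1700017B05Rik (0.957) and Smad4 to Prox1 (0.957). Smad7 was closest to Hnrnpu (0.944) and Tgfbr1 to 4833439L19Rik (0.939). The closest gene of so many over 8 libraries has a high r by selection.

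Genes that respond to TGF-beta were counted in lists drawn from general knowledge, and the microglial lists overlap genes already known to be lower in these libraries, so their direction is not independent evidence. Of 23 general response genes, 21 have an adjusted p in the authors' deposited table and 0 were called; the median difference was 0.07. Junb, an AP-1 transcription factor gene induced early by many stimuli, differed by 0.09 there (adjusted p = 0.840), and Rhob by 0.08 (adjusted p = 0.865).

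Among genes that resting microglia express under TGF-beta, more were lower than higher in named Qk-KO. Of 23, the authors' deposited table called 7 lower and 0 higher, beside 0.671% and 0.551% of the genes with an adjusted p, and the median difference was -0.28, with 18 below 0. The median level of the list was 377 CPM, against 2.88 CPM over all genes tested. The shares of all genes given here are not matched for level. In 11 of 23 the named groups did not overlap with named Qk-KO lower, beside 2.7% of all genes tested. In 1 of 23 they did not overlap with named Qk-KO higher, beside 3.04%. The 7 were Sall1, a transcription factor that sets microglial identity, Cx3cr1, the fractalkine receptor whose locus drives the Cre, Csf1r, the receptor that microglia need to survive, and Adgrg1, Gpr34, Sparc and Jam2.

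Sall1 had values of 13.63, 13.54, 13.67 and 13.63 in named Qk-KO libraries, against 13.89, 13.94, 14.04 and 14.12 in named WT libraries, and the authors' deposited table puts it 1.31-fold lower (adjusted p = 8.65e-05). Adgrg1, an adhesion receptor, had values of 12.43, 12.33, 11.99 and 12.50 in named Qk-KO libraries, against 12.86, 12.80, 12.99 and 13.01 in named WT libraries, and the same table puts it 1.52-fold lower (adjusted p = 0.000351). Neither gene overlapped between named groups, nor did the other 5. In the authors' deposited table Cx3cr1 was 1.62-fold lower, Sparc 1.46-fold, Gpr34 1.41-fold, Jam2 1.35-fold and Csf1r 1.21-fold. Exons of Csf1r overlap a gene on the other strand over 15.1% of their length. C1qa, a complement gene that is also abundant, differed by -0.02 there (adjusted p = 0.910), and limma called none of the 23. As given above, the summed microglial markers, 3 of whose 10 genes are among the 7, were also lower in every named Qk-KO library; how far cell makeup enters was not tested.

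**Figure D5:**
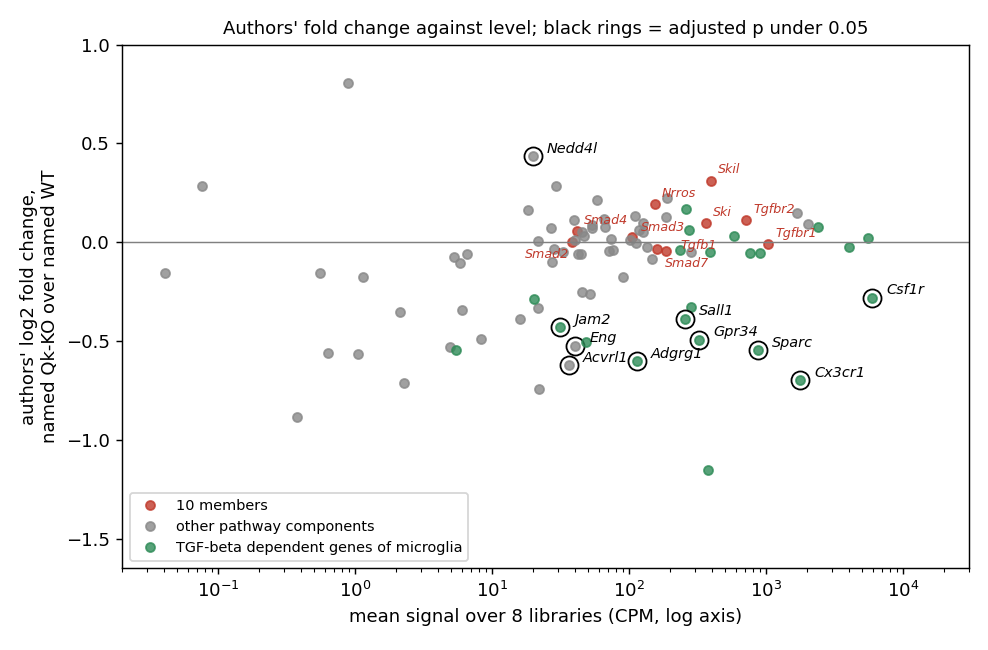
The authors' deposited log2 fold change of named Qk-KO over named WT against mean level in CPM (log axis) for the 10 members, other pathway components and TGF-beta dependent genes of microglia; black rings mark genes called in the authors' deposited table. The members lie between -0.04 and 0.31 with none ringed, and 9 of the 10 ringed genes lie below 0.

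Of 15 genes that rise in mouse microglia deprived of TGF-beta signalling, the authors' deposited table called 1 higher and 3 lower, beside 0.551% and 0.671% of the genes with an adjusted p. Limma called none of the 15. Ms4a7, a membrane protein gene of brain border macrophages, was at 10.68, 10.41, 10.32 and 10.28 in named Qk-KO libraries, against 9.64, 9.76, 9.63 and 9.50 in named WT libraries, without overlap, and the authors' deposited table puts it 1.76-fold higher (adjusted p = 2.72e-08). The 5 markers of border-associated macrophages summed to 72.9 to 126 CPM in named Qk-KO libraries and 77.6 to 129 CPM in named WT libraries. Their median difference was -0.15, with 5 below 0 and 0 called in the authors' deposited table. Their part in the Ms4a7 result was not tested. In the same table the antigen presentation genes Cd74, H2-Aa and H2-Ab1 differed by -0.87, -1.06 and -0.98 (adjusted p = 4.03e-05, 0.000524 and 0.00150). Apoe, Spp1 and Axl, the most abundant of the list, were not called, at 0.26, 0.18 and -0.03 (adjusted p = 0.288, 0.584 and 0.932).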

How the data were processed

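Total RNA of 8 microglial libraries was measured by sequencing. FastQC, HISAT2, StringTie, DESeq2 and the build mm10 are named in the submitters' processing notes, without versions or roles; the sources used here do not give the annotation release. In the deposited table, 8 library columns hold log2 values from the authors, read from their behaviour as regularized logarithms. Per the file headers, the deposited baseMean is a mean normalized signal, and the authors' table gives a log2 fold change, its standard error, a test statistic (a score), a p-value, and that p-value adjusted. No counts were in the table, so the count test named as a fallback was not used.

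Differences were fitted with limma 3.58.1 in R 4.3.3 (intensity trend, robust estimation), with no pseudocount, over 22546 genes that reached a normalized value of 1 in at least 4 libraries, and p-values were adjusted over all of them by Benjamini-Hochberg; the threshold was 0.05. Tables were handled in Python 3.11.15 with pandas 2.3.3. The script was tested on simulated data. CPM is the authors' mean signal divided by 56.8. For marker sums, the log2 values of each library were turned back to signal and divided by the same number. Relative depth came from genes seen in only 1 library, whose signals step by the worth of 1 read (whole within 1%), and library totals are rough. Exon lengths and overlaps came from GENCODE vM21, in which 46488 of 46983 identifiers were found without their version. The sources used here do not say whether counting used strand; no member shares exons with another gene.

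Members and lists were chosen with earlier results of these data known. Named genes were all members, called genes of each list, the 3 most abundant genes of each list, the gene most like each member, and Qk. The result of 1 abundant list gene is not reported here. Alternatives covered the filter on low values, the empirical Bayes settings, centring, the other label as covariate, a replicate block and leaving out each library; the interaction of name with genotype field and the fit without both libraries numbered 4 were added after the data were seen.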

Additional observations from a re-analysis of the deposited data

Results flagged for a closer look

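Among the named genes, 106 groups of 4 libraries were examined for a library far from the others of its group, by the gap to its nearest neighbour as a share of the group's range, and 5 exceeded Dixon's 95% critical value for 4 values. Chance marks about 5% of groups. Among named WT libraries, named WT 4 was the outlying one for Gdf15 (0.97), Tgif1 (0.938), Ncor1 (0.921) and Cx3cr1 (0.839). It was low for Gdf15, Tgif1 and Ncor1 and high for Cx3cr1. Among named Qk-KO libraries, named Qk-KO 3 was low for Sparc (0.873). No member was marked.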

How the results depend on the processing

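No member was called under any alternative, in either grouping, nor at an adjusted p under 0.1 in the authors' deposited table. Of 784 alternative values for 53 single-gene results, 747 kept their direction and their side of the threshold, 36 changed sign and 1 newly passed: Ms4a7, without named Qk-KO 4 (limma, adjusted p = 0.0483). Limma's count by name, 1 gene, was 0 among genes of at least 1 CPM, 4 without both libraries numbered 4, and 0 to 7 leaving out each library. By genotype field the count of 0 was 1 without both libraries numbered 4, and 0 to 1 leaving out each. The members' median difference of 0.04 stayed between 0.000178 and 0.0933 with each library left out, and was 0.113 with libraries centred on their median. With each library left out the difference ranged from 0.056 to 0.468 for Skil, from 0.0317 to 0.161 for Ski, from 0.0820 to 0.149 for Tgfbr2 and from 0.116 to 0.228 for Nrros.

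Centring libraries on their median changed the sign of Tgfb1 (0.0169), Tgfbr1 (0.0744), Smad7 (0.0227), Itgb1 (0.0298), Smad5 (0.0166), Crebbp (0.0121), C1qa (0.0522) and Axl (0.0417). Leaving out both libraries numbered 4 changed that of Tgfb1 (0.0196), Tgfbr1 (0.0332), Smad7 (0.0585), Crebbp (0.129), Axl (0.0478), Bmpr2 (0.0166) and, by genotype field, Smad7 (0.0153). With 1 library left out, differences spanned -0.146 to 0.0600 for Tgfb1, -0.104 to 0.0494 for Tgfbr1, -0.0326 to 0.0367 for Smad2, -0.0203 to 0.0862 for Smad3, -0.0192 to 0.0839 for Smad4 and -0.131 to 0.10 for Smad7. They spanned -0.175 to 0.663 for Tgif1, -0.194 to 0.123 for Crebbp, -0.0237 to 0.134 for Rhob, -0.0825 to 0.0272 for Axl, -0.182 to 0.0138 for Bmpr2 and -0.295 to 1.11 for Gdf15, and by genotype field -0.0535 to 0.0526 for Smad4 and -0.181 to 0.0627 for Smad7. The cause was not tested.

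With the replicate number as a block, 1 gene and 0 members were called. Same-numbered libraries correlated at 0.046, 0.149, 0.274 and 0.458 in their deviations for numbers 1 to 4, and the first did not reach the 0.1 required of every pair, so the numbers were not taken as pairs. Named Qk-KO 2, 3 and 4 were each closest to the named WT library of the same number, named Qk-KO 1 was closest to named WT 3 (0.125), and named WT 2 was closest to named Qk-KO 3 (0.167).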

Other observations

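The BMP and activin branch, which shares Smad4 with TGF-beta, had a median level of 1.18 CPM over its genes tested. Its levels were uneven: Bmpr2 was at 183 CPM, Gdf15 at 45.1 CPM and Smad5 at 44.7 CPM, the most abundant of the list. Of 22 genes 21 were tested, 13 had an adjusted p in the authors' deposited table and 0 were called; the median difference was -0.10. Bmpr2, a type II receptor gene of BMP ligands, differed by -0.08 there (adjusted p = 0.883). Gdf15, a stress-induced ligand gene counted in this list, was at 12.14, 11.49, 11.92 and 8.84 in named Qk-KO libraries, against 11.43, 11.35, 11.39 and 8.79 in named WT libraries, so the libraries numbered 4 were the lowest in both groups. Whether Gdf15 acts through this branch was not tested.

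P2ry12, a purinergic receptor gene of resting microglia in the list of TGF-beta dependent genes, was picked out after its values were seen. It was at 14.40, 12.09, 13.91 and 12.28 in named Qk-KO libraries, against 14.88, 14.82, 14.99 and 14.96 in named WT libraries. All named Qk-KO libraries lay below all named WT libraries, as for 2.7% of all genes tested. Named Qk-KO 2 and 4, the libraries in which name and genotype field both say Qk-KO, were the lowest. Called genes of the same list did not share this order. Cx3cr1, Adgrg1, Gpr34, Sparc, Jam2 and Csf1r were lowest in named Qk-KO 3, whose field says WT. Sall1 was lowest in named Qk-KO 2. For P2ry12 the authors' deposited table gives -1.15 (adjusted p = 0.188), and it was not called by limma (adjusted p = 0.485).

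Libraries numbered 4, the lower depth of named Qk-KO libraries, the conflict between name and genotype field and the shrunken values limit every comparison above. With 4 libraries a group, intervals for the members were between 0.24 (Tgfbr2) and 1.25 (Skil) wide on the log2 scale.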
